A study of Mus musculus with 35 samples.

Results

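The DEAD-box RNA helicases were followed through mouse bone marrow cells with 1 of 3 NUP98 fusion genes that doxycycline switches off, with Ddx10, whose human counterpart supplies a part of the NUP98-DDX10 fusion, set against the rest of the family. Members were the protein-coding genes whose mouse symbol is Ddx followed by a digit; 3 further genes with such symbols were not analysed here. Of the 24454 genes in the table, 34 were members, and 33 of these passed a filter of a normalized count of at least 10 in 3 or more libraries, among 12682 genes that passed it in all. Ddx43, a gene known from testis and tumours, passed 10 in only 1 library (a control, at 19.5) and was left out. Ddx25 passed with exactly 3 libraries, Ddx4 with 7 and Ddx60 with 13. The other 30 members stood at 10 or more in all 33 libraries. The 3 libraries of Ddx25 were the controls, and no library after doxycycline reached 10 for Ddx4. Falls of Ddx25 and Ddx4 from the groups that let them pass are thus tied to the filter. Ddx60 passed only through NUP98-CTRL and NUP98-JARID1A libraries, so its lower level in NUP98-DDX10 and NUP98-NSD1 is tied to the filter as well.

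RNA was sequenced from C57BL/6 mice transplanted with cells carrying regulatable NUP98-DDX10, NUP98-JARID1A or NUP98-NSD1, from bone marrow sorted for GFP and CD45.2. Each fusion gave 4 untreated libraries (1 titled day 3, 3 titled day 5, pooled as 1 group), 3 libraries after 3 days and 3 after 5 days of doxycycline at 4 mg/ml. Only the fusion lines received doxycycline, so loss of a fusion and an effect of the drug itself cannot be told apart. The remaining 3 libraries are titled NUP98-CTRL and were untreated. Their genotype labels each list NUP98/NSD1, NUP98/JARID1A and 1 further fusion, which is NUP98/DDX40, NUP98/DDX41 or NUP98/DDX42 in turn, so the labels leave unclear what the control cells hold. The labels number libraries and not animals, so p-values measure the spread between these libraries, which may be technical.

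DEAD-box proteins bind RNA and use ATP to pull apart short duplexes or to strip proteins from RNA, and most act at a single step of an RNA's life. The largest group works in the nucleolus, where each helicase acts at a given point in the maturation of the small or the large ribosomal subunit, and DDX10 belongs here: its yeast counterpart Dbp4 is needed to release a snoRNA from pre-ribosomes and to make the small subunit rRNA. Another group acts on mRNA in the nucleus, in the spliceosome and in export, and the rest includes germline helicases (Ddx4, Ddx25), a P-body and translation regulator (Ddx6), a mitochondrial ribosome assembly factor (Ddx28) and an interferon-induced gene (Ddx60). In the human NUP98-DDX10 fusion of myeloid leukemia, the repeat-rich start of the nuclear pore protein NUP98 is joined to a later part of DDX10. Of the 33 members, 14 were placed in ribosome biogenesis, 11 in nuclear mRNA processing and export, and 8 in the germline and other group.

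The 250 bases upstream of 1 annotated transcript start are shown for 4 members on which the results turn: Ddx10 itself, Ddx27, whose day 5 change differed most between the fusions by p-value, Ddx4, which fell most, and Ddx60, which was highest in the controls. They are from RefSeq on GRCm38, 5′ to 3′ on the gene's own strand: Ddx10 on the minus strand of chr9:53248113-53248362, Ddx27 on the plus strand of chr2:167015063-167015312, Ddx4 on the minus strand of chr13:112652311-112652560 and Ddx60 on the plus strand of chr8:61927837-61928086. Capitals mark CACGTG (an E-box, its own reverse complement) or a pair of GAAA runs 2 bases apart (the core of an interferon-stimulated response element, searched on both strands), and the Ddx10 and Ddx27 windows hold neither.
Ddx10: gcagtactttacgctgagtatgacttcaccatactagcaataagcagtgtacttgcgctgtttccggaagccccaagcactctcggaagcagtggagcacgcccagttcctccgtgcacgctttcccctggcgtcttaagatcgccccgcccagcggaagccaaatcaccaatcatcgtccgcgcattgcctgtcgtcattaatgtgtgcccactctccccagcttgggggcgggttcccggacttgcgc
Ddx27: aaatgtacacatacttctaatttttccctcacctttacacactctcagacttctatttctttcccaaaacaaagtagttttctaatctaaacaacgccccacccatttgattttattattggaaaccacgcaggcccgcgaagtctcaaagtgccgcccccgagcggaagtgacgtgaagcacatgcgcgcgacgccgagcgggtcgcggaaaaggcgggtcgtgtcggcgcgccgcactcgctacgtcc
Ddx4: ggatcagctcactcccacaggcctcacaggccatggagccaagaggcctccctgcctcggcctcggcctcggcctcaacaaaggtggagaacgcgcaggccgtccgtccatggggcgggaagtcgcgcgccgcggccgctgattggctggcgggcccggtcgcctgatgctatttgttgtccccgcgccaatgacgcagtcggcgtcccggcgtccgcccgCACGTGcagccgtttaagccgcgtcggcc
Ddx60: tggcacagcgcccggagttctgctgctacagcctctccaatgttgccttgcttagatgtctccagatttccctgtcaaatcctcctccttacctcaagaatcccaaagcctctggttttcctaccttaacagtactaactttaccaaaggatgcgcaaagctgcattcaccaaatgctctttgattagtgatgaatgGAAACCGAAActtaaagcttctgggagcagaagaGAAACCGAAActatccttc
CACGTG was searched for in the 300 bases from 250 before to 50 after the start. It was present for 0 of the 14 ribosome biogenesis members, and for 4 of the 29 members with a window (13.8%), against 1185 of 10158 tested genes (11.7%). In Ddx4 it begins 29 bases upstream of the transcript start used. The annotated Ddx4 gene runs to chr13:112652633, so the whole Ddx4 window lies inside the gene. The Ddx10 and Ddx60 windows also reach into their annotated genes, whose edges are at 53248170 and 61928073. The GAAA pair was present for 2 of 29 members (6.9%), against 400 of 10158 tested genes (3.94%); Ddx60 holds it at 53 and at 19 bases upstream, and Ddx49 at 227 bases upstream of 1 of its annotated starts. Base composition set the windows apart as well: the Ddx4 window is 70.4% G or C with 31 CpG and the Ddx60 window 46% with 5 CpG, against medians of 59.2% and 15 CpG over 12893 windows of tested genes. A match of letters is a description of the window and not a bound site.

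Libraries held 12043487 to 28903870 reads in genes, and all 12 myeloid identity markers were above 0 in every group. The NUP98-DDX10 transcript stood at 9003 to 14121 normalized counts in untreated NUP98-DDX10 libraries, 3.19 to 7.29 at day 3 and 4.3 to 8.01 at day 5. NUP98-JARID1A stood at 60.2 to 100.3 at day 5 in its own line, against 3042 to 3489 untreated, and NUP98-NSD1 at 40.3 to 58.1, against 52599 to 58498 untreated. In NUP98-CTRL libraries 1, 2 and 3 the NUP98-JARID1A transcript stood at 2.52, 72 and 18.2. The NUP98-DDX10 and NUP98-NSD1 transcripts were at 0 in all 3 controls. The eGFP transcript, although the sort was for GFP, was lower after doxycycline in all 3 lines and low in the controls: it stood at 2.15 to 4.01 in NUP98-DDX10 at day 5, against 7445 to 14453 untreated, and at 13.9 to 210.3 in NUP98-CTRL. Control library 3 stood apart, with a summed myeloid marker count of 140661, against 1091180 and 1051380 in the other 2, so the control comparisons are also counted without it.

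The members differed widely in level per kilobase of exon, taken as the mean of the 10 group means. Ddx39b and Ddx5, both mRNA helicases, led with levels of 3363 and 1969 normalized counts per kilobase, followed by the nucleolar Ddx24 at 736, Ddx47 at 735 and Ddx21 at 622. Ddx10 stood at 81.9 per kilobase, rank 24 of 33, and the last 3 ranks were Ddx60 at 15.4, Ddx25 at 4.8 and Ddx4 at 1.5. Leaving those 3 aside, the fold between a member's highest and lowest group mean ran from 1.21 for Ddx41, a spliceosome-associated helicase, to 3.39 for Ddx56. The group with the highest mean was NUP98-DDX10 at day 5 for 8 members, untreated NUP98-JARID1A for 8 and NUP98-CTRL for 7, and no member peaked in NUP98-JARID1A or NUP98-NSD1 at day 5.

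Ddx10 (Entrez 77591, GRCm38 chr9:53098454-53248170, minus strand) was present in every library, from 276 to 846 normalized counts. In NUP98-DDX10 it stood at 455, 487, 449 and 415 untreated, 489, 527 and 554 at day 3, and 547, 475 and 517 at day 5. In NUP98-JARID1A it stood at 517, 419, 522 and 578 untreated, 414, 494 and 533 at day 3, and 449, 322 and 276 at day 5. In NUP98-NSD1 it stood at 702, 846, 773 and 815 untreated, 710, 695 and 757 at day 3, and 757, 580 and 619 at day 5. Controls held 521, 546 and 636, so the NUP98-NSD1 libraries before doxycycline were above all others outside that line, the NUP98-DDX10 libraries before doxycycline were below all controls, and only NUP98-JARID1A at day 5 reached below 400. By group mean the order was untreated NUP98-NSD1 (784 ± 62.3), NUP98-NSD1 day 3 (721 ± 32.5) and day 5 (652 ± 92.7), NUP98-CTRL (568 ± 60.3), NUP98-DDX10 day 3 (523 ± 32.5) and day 5 (513 ± 35.8), untreated NUP98-JARID1A (509 ± 66), NUP98-JARID1A day 3 (480 ± 60.5), untreated NUP98-DDX10 (451 ± 29.8) and NUP98-JARID1A day 5 (349 ± 89.4), each with its SD (n = 4 for the untreated fusion groups, n = 3 for the rest). The libraries of every neighbouring pair in that order overlapped in value, so no step between neighbours exceeded their spread.

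**Figure D1:**
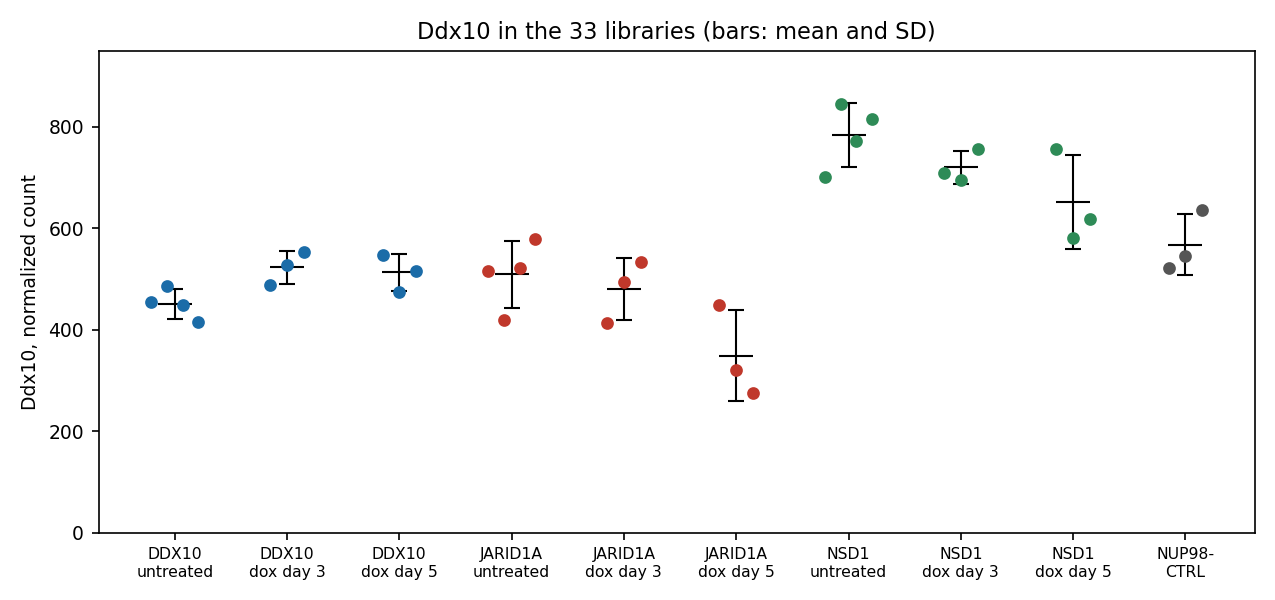
Ddx10 normalized counts (vertical axis, linear from 0) in each library (points) of the 10 groups (horizontal axis), with the group mean and SD as black bars. NUP98-NSD1 libraries sit at 580 to 846, NUP98-JARID1A at day 5 reaches down to 276, and NUP98-DDX10 libraries stay between 415 and 554 with and without doxycycline.

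The 3 untreated fusions differed in Ddx10 by limma's F-test on log2(normalized count + 1) in 1 fit over 33 libraries (Benjamini-Hochberg adjusted over all features, as is every adjusted p here; adjusted p = 6.67e-06). Of all tested genes 69.8% passed that test, as did 21 of 33 members. Ddx10 was lower in untreated NUP98-DDX10 than in the mean of the other 2 untreated fusions by a log2 difference of -0.48 (SE 0.11, limma adjusted p = 0.000823). In that comparison 34.3% of genes were called, 16.9% higher and 17.4% lower, and of the 33 members 2 were higher and 9 lower. Ddx10 in untreated NUP98-JARID1A (419 to 578) overlapped untreated NUP98-DDX10 (415 to 487), and only in untreated NUP98-NSD1 (702 to 846) did it lie above both. At day 5 it fell in NUP98-JARID1A (log2 difference from untreated -0.57, SE 0.13, limma adjusted p = 0.00111), although its library at 449 lay inside the untreated range. It was not called in NUP98-NSD1 (-0.27, limma adjusted p = 0.142) or in NUP98-DDX10 (0.18, limma adjusted p = 0.376). The day 5 difference of NUP98-DDX10 exceeded the mean of the other 2 fusions by 0.60 (SE 0.16, limma adjusted p = 0.0108), where 17.9% of genes were called, 7.8% higher and 10.1% lower, and of the 33 members 7 were higher and 1 lower. It became 0.52 with limma adjusted p = 0.0555 without the untreated libraries titled day 3. The F-test over the 3 day 5 differences of Ddx10 (limma adjusted p = 0.0117) was likewise lost without them (adjusted p = 0.0653). Whether reads of the human DDX10 part of the fusion reached the mouse Ddx10 row was not tested.

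Over the 10 group means of log2(normalized count + 1), the members most like Ddx10 were Ddx23 (Pearson r = 0.82), the U5 helicase counterpart of yeast Prp28, Ddx42 (0.79), a helicase of the U2 particle, and Ddx46 (0.76), the counterpart of yeast Prp5. All 3 belong to the mRNA group. The nearest ribosome biogenesis members were Ddx50 (0.64), Ddx47 (0.55) and Ddx52 (0.54), and Ddx54 (-0.58) was the least alike of them. These are descriptions over 10 points that share libraries within a fusion. Set against the median of the other 32 members within each library, Ddx10 was higher by a log2 difference of 0.48 ± 0.16 (SD, n = 4) in untreated NUP98-NSD1, and lower in untreated NUP98-DDX10 (-0.49 ± 0.12, n = 4), in untreated NUP98-JARID1A (-0.35 ± 0.13, n = 4) and slightly in NUP98-CTRL (-0.04 ± 0.08, n = 3). The 4 NUP98-NSD1 libraries (0.27 to 0.64) did not overlap with the 4 of NUP98-DDX10 (-0.58 to -0.31) or of NUP98-JARID1A (-0.48 to -0.22). On this relative scale NUP98-JARID1A at day 5 stood at -0.49 ± 0.37 (-0.71 to -0.05, n = 3), overlapping its untreated libraries, NUP98-NSD1 at day 5 at 0.32 ± 0.12 and NUP98-DDX10 at day 5 at -0.37 ± 0.18 (n = 3 each), and the day 3 groups at -0.24 ± 0.11 in NUP98-JARID1A, 0.33 ± 0.09 in NUP98-NSD1 and -0.37 ± 0.09 in NUP98-DDX10 (n = 3 each).

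Averaged over the 3 fusions, doxycycline for 5 days lowered 15 of 33 members and raised 1. Of the 15, 9 were among the 14 ribosome biogenesis members (64.3% of that group). The share of members called was 48.5%, close to the 46% of all 12682 genes. By direction, 23.4% of genes were called lower and 22.6% higher. The family's median log2 difference was -0.11, beside 0.00 over all genes. After 3 days of doxycycline 2 members were higher and 3 lower, where 18.6% of genes were called, 8.67% higher and 9.88% lower. Ddx10 was not called at day 3 (log2 difference 0.00, SE 0.08, limma adjusted p = 0.983) and fell by 0.22 at day 5 (SE 0.08, limma adjusted p = 0.0213). That day 5 call was lost without the untreated libraries titled day 3 (-0.20, adjusted p = 0.0513), without NUP98-JARID1A day 5 library 3 (-0.17, adjusted p = 0.0675) and without NUP98-NSD1 day 5 library 2 (-0.19, adjusted p = 0.0542).

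**Figure D2:**
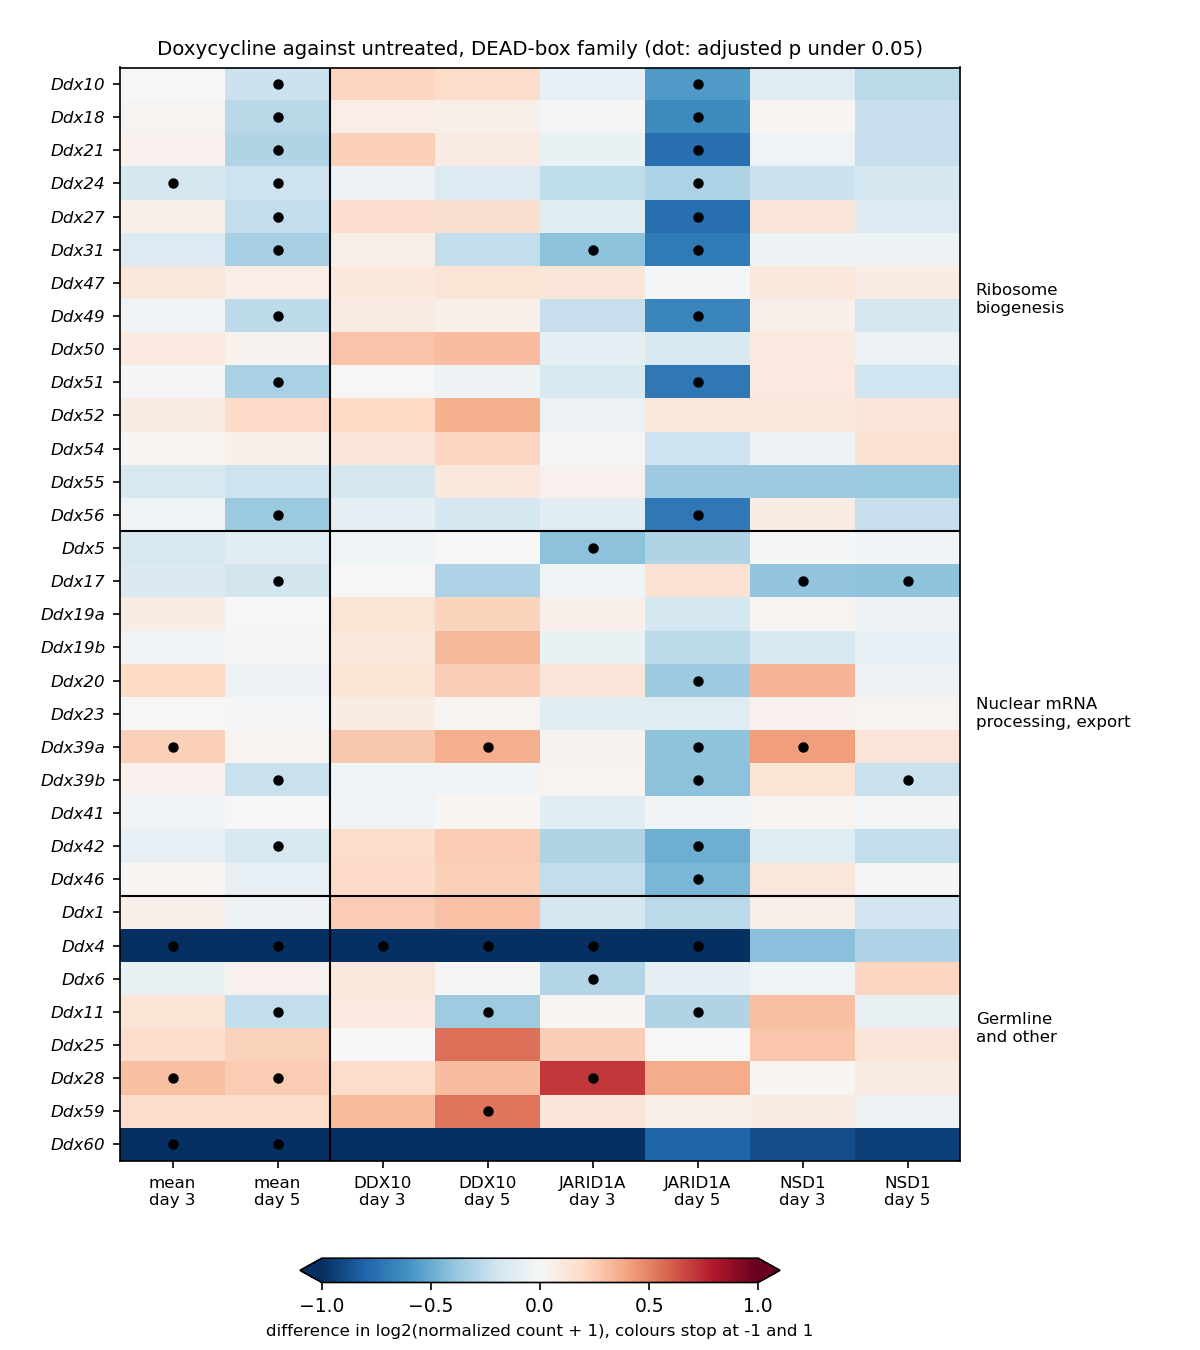
Difference in log2(normalized count + 1), doxycycline minus untreated (colour, from -1 in blue to 1 in red), for the 33 members (down, by role) in the mean of the 3 fusions and in each fusion at day 3 and day 5 (across), with dots for limma adjusted p under 0.05. The blue block with dots is NUP98-JARID1A at day 5, where 16 members fell and 0 rose, while the NUP98-DDX10 day 5 column holds 4 dots and the NUP98-NSD1 day 5 column 2.

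In NUP98-JARID1A at day 5, 16 of 33 members fell and 0 rose, where 41.3% of genes were called, 21.2% lower and 20.1% higher, and the family's median was -0.31 beside -0.02 over all genes. In NUP98-NSD1 2 members fell and 0 rose, where 25.4% of genes were called, 11.9% lower and 13.5% higher. In NUP98-DDX10 2 rose (Ddx39a and Ddx59) and 2 fell (Ddx4 and Ddx11), where 15.1% of genes were called, 6.49% higher and 8.63% lower, and the family's median was 0.11 beside 0.00. The NUP98-DDX10 count of 4 was 1 without the untreated libraries titled day 3 and 9 when the fit held only that comparison's libraries. The 3 day 5 differences were themselves unequal by limma's F-test for 11 of 33 members (33.3%), where 25.9% of genes passed. This count was 18 without control library 3 and 6 without the untreated libraries titled day 3. The count of 16 in NUP98-JARID1A became 9 when the fit held only the libraries of that comparison, and Ddx10 was then not among them (adjusted p = 0.0716). At day 3, 1 member fell in NUP98-DDX10, where 1.08% of genes were called, 0.134% higher and 0.946% lower. In NUP98-JARID1A 1 rose and 4 fell, where 15.7% of genes were called, 8.11% higher and 7.61% lower. In NUP98-NSD1 1 rose and 1 fell, where 9.12% of genes were called, 4.55% higher and 4.57% lower.

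Among the 14 ribosome biogenesis members, 9 fell in NUP98-JARID1A at day 5 and 0 rose, with a median log2 difference of -0.60. That is 64.3% of the group, where 41.3% of all genes were called, 21.2% lower and 20.1% higher. In NUP98-DDX10 and NUP98-NSD1, where 15.1% and 25.4% of all genes were called, 0 of the 14 passed at day 5, with medians of 0.10 and -0.17 (limma). At an unadjusted p under 0.05 these counts were 0 in NUP98-DDX10 and 1 in NUP98-NSD1 (Ddx55), edgeR and DESeq2 called 0 of 14 in NUP98-DDX10, and each called 1 in NUP98-NSD1, again Ddx55, which was lower. The 9 were Ddx10, Ddx18, Ddx21, Ddx24, Ddx27, Ddx31, Ddx49, Ddx51 and Ddx56. All 9 were called lower in the mean of the 3 fusions at day 5, which includes the NUP98-JARID1A libraries and is not a separate test. Ddx47, Ddx50, Ddx52, Ddx54 and Ddx55 were not called by limma at day 5 in any fusion.

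Ddx27, the counterpart of yeast Drs1 in large subunit maturation, stood at 420, 524 and 477 in NUP98-JARID1A at day 5, against 733, 834, 865 and 760 untreated. The groups did not overlap (log2 -0.75, SE 0.10, limma adjusted p = 8.79e-07). In NUP98-DDX10 it stood at 830, 972 and 866 at day 5, against 880, 779, 803 and 728 untreated, overlapping and not called (0.16, adjusted p = 0.312). Its day 5 difference had the smallest F-test p of the family (limma adjusted p = 0.000102). Ddx21, a nucleolar helicase of rRNA transcription and processing, stood at 2693, 2068 and 1771 in NUP98-JARID1A at day 5, against 3583, 3367, 3677 and 3830 untreated. That is a fall of 0.75 on the log2 scale (SE 0.13, limma adjusted p = 3.25e-05) with every treated library below every untreated one. In NUP98-DDX10 Ddx21 stood at 2661, 2878 and 2731 at day 5, against 2647, 2769, 2657 and 2337 untreated.

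Ddx56, the counterpart of yeast Dbp9, stood at 461, 504 and 451 in NUP98-JARID1A at day 5, against 788, 850, 812 and 659 untreated, and fell by 0.71 (limma adjusted p = 0.000148). Over the 3 fusions it fell by 0.37 (SE 0.08, limma adjusted p = 0.00037). Ddx31, the counterpart of yeast Dbp7, was unusual in its starting level: untreated NUP98-JARID1A held 669, 628, 655 and 721, against 290 to 365 in the other 2 untreated lines. It stood at 457, 471 and 592 at day 3 and 469, 386 and 379 at day 5 in NUP98-JARID1A, with limma adjusted p = 0.0222 and 3.85e-05, so its fall was already called at day 3. The day 3 call was lost without NUP98-JARID1A day 3 library 1 (adjusted p = 0.129) or 2 (adjusted p = 0.106), and without the untreated library titled day 3 (adjusted p = 0.0652). Ddx51, the counterpart of yeast Dbp6, fell over the 3 fusions at day 5 by 0.32 (SE 0.10, limma adjusted p = 0.0103). Ddx18, Ddx49 and Ddx24 fell in NUP98-JARID1A at day 5 by 0.64, 0.66 and 0.31. Ddx24 was the sole ribosome biogenesis member called at day 3 over the 3 fusions (-0.18, limma adjusted p = 0.0352), a call lost without the untreated libraries titled day 3 (adjusted p = 0.12) and in 11 of the 33 fits that each leave out 1 library.

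**Figure D3:**
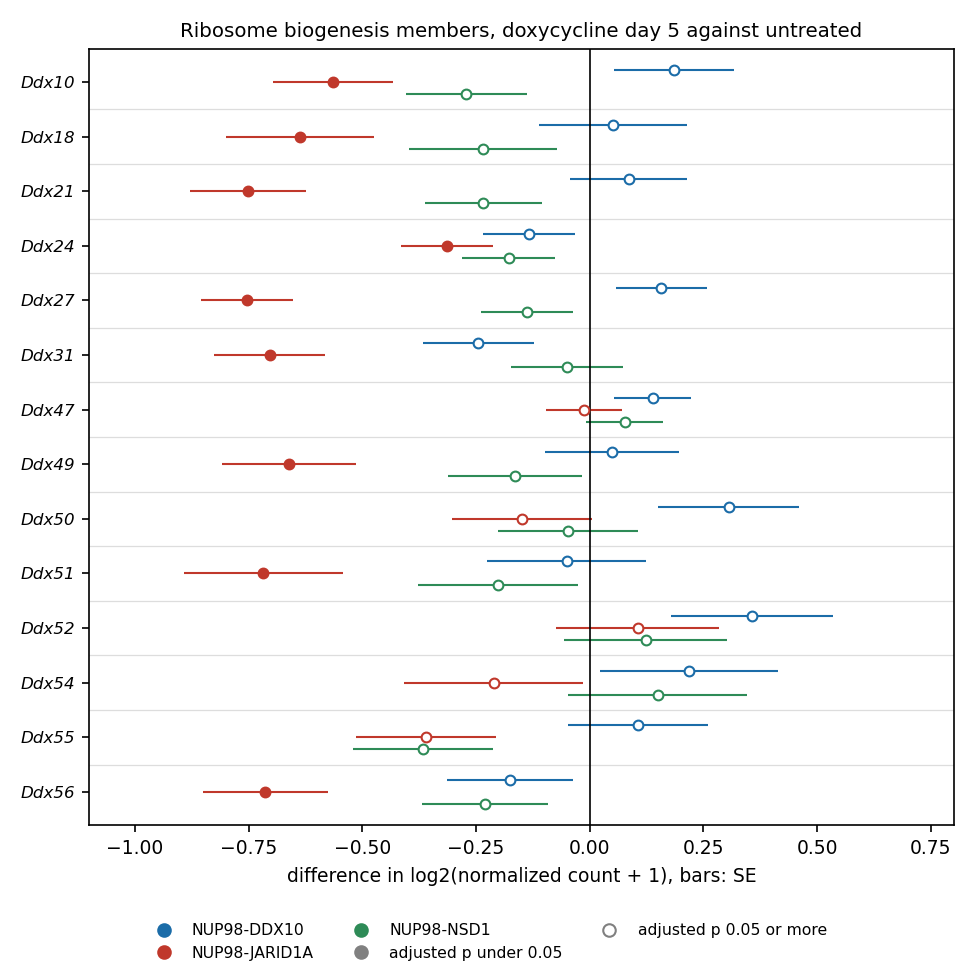
Day 5 doxycycline minus untreated difference in log2(normalized count + 1) (horizontal axis, bars are SE) for the 14 ribosome biogenesis members (vertical axis) in the 3 fusions (colours), filled where limma adjusted p is under 0.05. All 9 filled points are NUP98-JARID1A, between -0.31 for Ddx24 and -0.75 for Ddx21 and Ddx27.

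The small subunit processome is the particle in which yeast Dbp4 acts. Of 42 of its genes outside the family, 28 fell in NUP98-JARID1A at day 5 and 0 rose (median -0.52), 9 fell and 1 rose in NUP98-NSD1 (median -0.21), and 0 fell and 1 rose in NUP98-DDX10 (median 0.13). The shares called were 66.7%, 23.8% and 2.38%, beside 41.3%, 25.4% and 15.1% of all genes, so that in NUP98-NSD1 is near the background. Rcl1 had the smallest p of these over the 3 fusions at day 5 (-0.73, SE 0.08, limma adjusted p = 4.26e-08), and the next were Nop56, a box C/D snoRNP core protein (-0.59, adjusted p = 8.14e-08), and Heatr1 (-0.47, adjusted p = 8.96e-06), the counterpart of yeast Utp10. The count of 28 became 18 when the fit held only the libraries of that comparison. For 19 of the 42 the day 5 difference was higher in NUP98-DDX10 than in the mean of the other 2 fusions, and for 0 lower, against 7.8% and 10.1% of all genes. The list was drawn up with results on these libraries known.

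Of 16 related DEAH-box helicases, 1 rose and 3 fell over the 3 fusions at day 5 (25%, below the 46% of all genes), and the 2 with the smallest p are again ribosome assembly factors: Dhx37 (-0.46, SE 0.08, limma adjusted p = 1.19e-05), the counterpart of yeast Dhr1, and Dhx33 (-0.43, adjusted p = 1.6e-05). Both also fell in NUP98-DDX10 at day 5 (-0.39 and -0.38, adjusted p = 0.0397 and 0.0327). Dhx9 (0.66, adjusted p = 0.00465) and Dhx40 (0.44, adjusted p = 0.0135) rose there. In that comparison 2 of the 16 rose and 3 fell (31.2%, beside 15.1% of all genes). Over the 3 fusions at day 5, Dhx57 also fell (-0.22, limma adjusted p = 0.0441) and Dhx40 rose (0.20, adjusted p = 0.0222). At day 3 over the 3 fusions Dhx58 (-0.53, adjusted p = 0.000363), a partner in viral RNA sensing, and Dhx57 (-0.30, adjusted p = 0.0157) fell. That is 12.5% of the 16, beside 18.6% of all genes. Of the 3 translation and exon junction helicases of the eIF4A group, 0 were called by limma, edgeR or DESeq2 in either mean comparison. At an unadjusted limma p under 0.05 there were 2 at day 3 and 0 at day 5. Eif4a1 and Eif4a3 fell in NUP98-JARID1A at day 5 by 0.46 and 0.38 (66.7% of the 3, beside 41.3% of all genes).

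Of the 11 nuclear mRNA helicases, 3 fell over the 3 fusions at day 5 (Ddx39b, Ddx17 and Ddx42) and 0 rose, while 5 fell in NUP98-JARID1A, 2 fell in NUP98-NSD1 and 1 rose in NUP98-DDX10. These shares, 27.3% over the 3 fusions, 45.5% in NUP98-JARID1A, 18.2% in NUP98-NSD1 and 9.09% in NUP98-DDX10, stand beside 46%, 41.3%, 25.4% and 15.1% of all genes, so they are near or below the background. The mRNA export factors Ddx39a and Ddx39b are close paralogs, and reads shared between the pair may have been split by the counting. Ddx39a stood at 2274, 2500 and 2433 in NUP98-DDX10 at day 5, against 1962, 1967, 1891 and 1653 untreated. It stood at 1396, 1352 and 976 in NUP98-JARID1A at day 5, against 1579, 1580, 1460 and 1890 untreated. Its difference was thus 0.37 (limma adjusted p = 0.0297) in NUP98-DDX10 and -0.40 (adjusted p = 0.00588) in NUP98-JARID1A, with no overlap of the groups in either, and the day 5 differences were unequal (F-test adjusted p = 0.00252). The NUP98-DDX10 call was lost without its untreated library titled day 3 (adjusted p = 0.108) or without day 5 library 2 (adjusted p = 0.107) or 3 (adjusted p = 0.0997). At day 3 Ddx39a rose in NUP98-NSD1 (2376, 2303 and 2249 at day 3, against 1728, 1714, 1721 and 1737 untreated, limma adjusted p = 0.0193, lost without day 3 library 1 or 2 at adjusted p = 0.0818 and 0.0635) and over the 3 fusions by 0.24 (adjusted p = 0.0104). The row overlaps Adgre5 on the opposite strand, and how strand entered the counting was not given. Ddx5, Ddx17, Ddx19b, Ddx42, Ddx49 and Ddx59 overlap Cep95, Kdelr3, Aars, Ftsj3, Homer3 and 9230116N13Rik in the same way, and reads of Ddx19a and Ddx19b may also have been split between the pair.

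Ddx39b, a core export and splicing factor also named UAP56, stood at 4816, 4756 and 4428 in NUP98-JARID1A at day 5, against 6243, 6554, 5973 and 6012 untreated, and fell by 0.41 there (limma adjusted p = 0.000241). Its fall of 0.22 in NUP98-NSD1 lay at the threshold (adjusted p = 0.0487) and the difference was -0.13 with adjusted p = 0.342 without day 5 library 2, and 24 of the 33 fits without 1 library lost it. The U2-particle helicases Ddx42 and Ddx46 also moved apart between the fusions at day 5, with F-test adjusted p of 0.00371 and 0.00293. Ddx42 stood at 844, 840 and 911 in NUP98-DDX10 at day 5, against 761, 769, 724 and 653 untreated, and at 809, 645 and 512 in NUP98-JARID1A, against 919, 836, 824 and 1064 untreated. The day 5 libraries were all above the untreated ones in NUP98-DDX10, without a call (0.25, limma adjusted p = 0.143), and all below them in NUP98-JARID1A (-0.49, adjusted p = 0.00116). Ddx46 fell in NUP98-JARID1A (-0.46, adjusted p = 0.000818) and was not called in NUP98-DDX10 (0.24, adjusted p = 0.128). Ddx17, a splicing and transcription cofactor, fell in NUP98-NSD1 at day 3 (2416, 2588 and 2557, against 3342, 3457, 3400 and 3030 untreated, limma adjusted p = 0.043, lost without any 1 of the 3 day 3 libraries at adjusted p of 0.0957 to 0.153) and at day 5 (1788, 3189 and 2748, adjusted p = 0.0162). The day 5 call rested on the library at 1788: without it the difference was -0.16 with adjusted p = 0.289. Its close relative Ddx5 fell in NUP98-JARID1A at day 3 (8249, 7328 and 7131, against 7957, 11093, 11879 and 9732 untreated, limma adjusted p = 0.0222), with 1 untreated library inside the treated range, and it missed the threshold at day 5 (-0.30, adjusted p = 0.0506). The day 3 call was lost without day 3 library 2 or 3 or untreated library 2 or 3 (adjusted p of 0.0664 to 0.0867), and in a fit of that comparison's libraries alone (adjusted p = 0.13). Ddx19a, Ddx19b, Ddx23 and Ddx41 were not called in any comparison of doxycycline with untreated, and Ddx20, the Gemin3 subunit of the SMN complex, fell only in NUP98-JARID1A at day 5 (-0.36, limma adjusted p = 0.0405).

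The largest falls under doxycycline in the family belonged to Ddx4, the counterpart of fly Vasa, known from germ cells. Ddx4 passed the filter only through libraries without doxycycline, among them all those of untreated NUP98-DDX10. Its rank among the falls and its high level in that group are tied to this selection. In NUP98-DDX10 it stood at 34.9, 46.6, 15.1 and 18.4 normalized counts untreated, 0, 4.25 and 0 at day 3, and 0, 1.08 and 1 at day 5. In NUP98-JARID1A it stood at 9.03, 10.4, 1.94 and 20.2 untreated, 0.85, 0 and 0.969 at day 3, and 0, 1 and 0 at day 5. NUP98-NSD1 libraries held 0 to 4.76 with and without doxycycline, and controls 3.79, 8 and 10.4. In NUP98-DDX10 and NUP98-JARID1A every treated library was thus below every untreated library, in whole reads 2 over the 3 day 5 libraries of NUP98-DDX10 against 112 over 4 untreated. Per unit of depth this is a 40.5-fold lower level at day 5 (exact 95% interval 11 to 338, counting error only), and 36.3-fold in NUP98-JARID1A (6.18 to 1469) on 1 read against 42. On the log2(normalized count + 1) scale, which shrinks such low values, the day 5 difference was -4.07 in NUP98-DDX10 (SE 0.64, limma adjusted p = 6.47e-05), -2.87 in NUP98-JARID1A (adjusted p = 0.000665) and -0.31 in NUP98-NSD1 (adjusted p = 0.786). These differed by the F-test (adjusted p = 0.00771), and Ddx4 had already fallen at day 3 in NUP98-DDX10 (-3.96, adjusted p = 0.000715) and in NUP98-JARID1A (-2.58, adjusted p = 0.00551, or 0.055 in a fit of that comparison's libraries alone). Ddx4 was the sole member called in NUP98-DDX10 at day 3, and it was higher in untreated NUP98-DDX10 than in the mean of the other 2 untreated fusions by 2.20 (limma adjusted p = 0.00137).

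Ddx60, an interferon-induced helicase, was above 10 only in NUP98-CTRL and NUP98-JARID1A libraries. It stood at 73.1, 35.5, 49.3 and 123 in untreated NUP98-JARID1A, 16.2, 24.1 and 19.4 at day 3, and 38.9, 39.2 and 30.1 at day 5. It was at 1.16 to 8.74 in untreated NUP98-DDX10, 2.82 to 5.99 in untreated NUP98-NSD1, and 1462, 1139 and 231 in NUP98-CTRL. Over the 3 fusions it fell by 1.51 at day 3 (SE 0.36, limma adjusted p = 0.00353) and by 1.06 at day 5 (adjusted p = 0.0164), and the day 5 call was lost without NUP98-NSD1 day 5 library 1 (adjusted p = 0.0569) or with a pseudocount of 10 (adjusted p = 0.0967). No single fusion passed. Reads were few in NUP98-DDX10 (20 over 4 untreated libraries, 1 over 3 at day 3) and in NUP98-NSD1 (23 over 4 untreated libraries, 9 over 3 at day 3). Ddx28, which acts in mitochondrial ribosome assembly, was the member that rose in both mean comparisons (0.30 at day 3, limma adjusted p = 0.022, and 0.25 at day 5, adjusted p = 0.0276). Both calls were lost without the untreated libraries titled day 3 (adjusted p = 0.058 at day 3 and 0.0644 at day 5). The day 3 call was also lost without NUP98-JARID1A day 3 library 1 (adjusted p = 0.0599), and the day 5 call without NUP98-DDX10 day 5 library 2 (adjusted p = 0.0646), NUP98-JARID1A day 5 library 3 (adjusted p = 0.0599) or NUP98-NSD1 day 5 library 3 (adjusted p = 0.0526). Its rise was largest in NUP98-JARID1A at day 3, with 474, 392 and 340, against 241, 257, 238 and 237 untreated (0.71, adjusted p = 0.00268). The row overlaps Dus2 on the opposite strand.

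**Figure D4:**
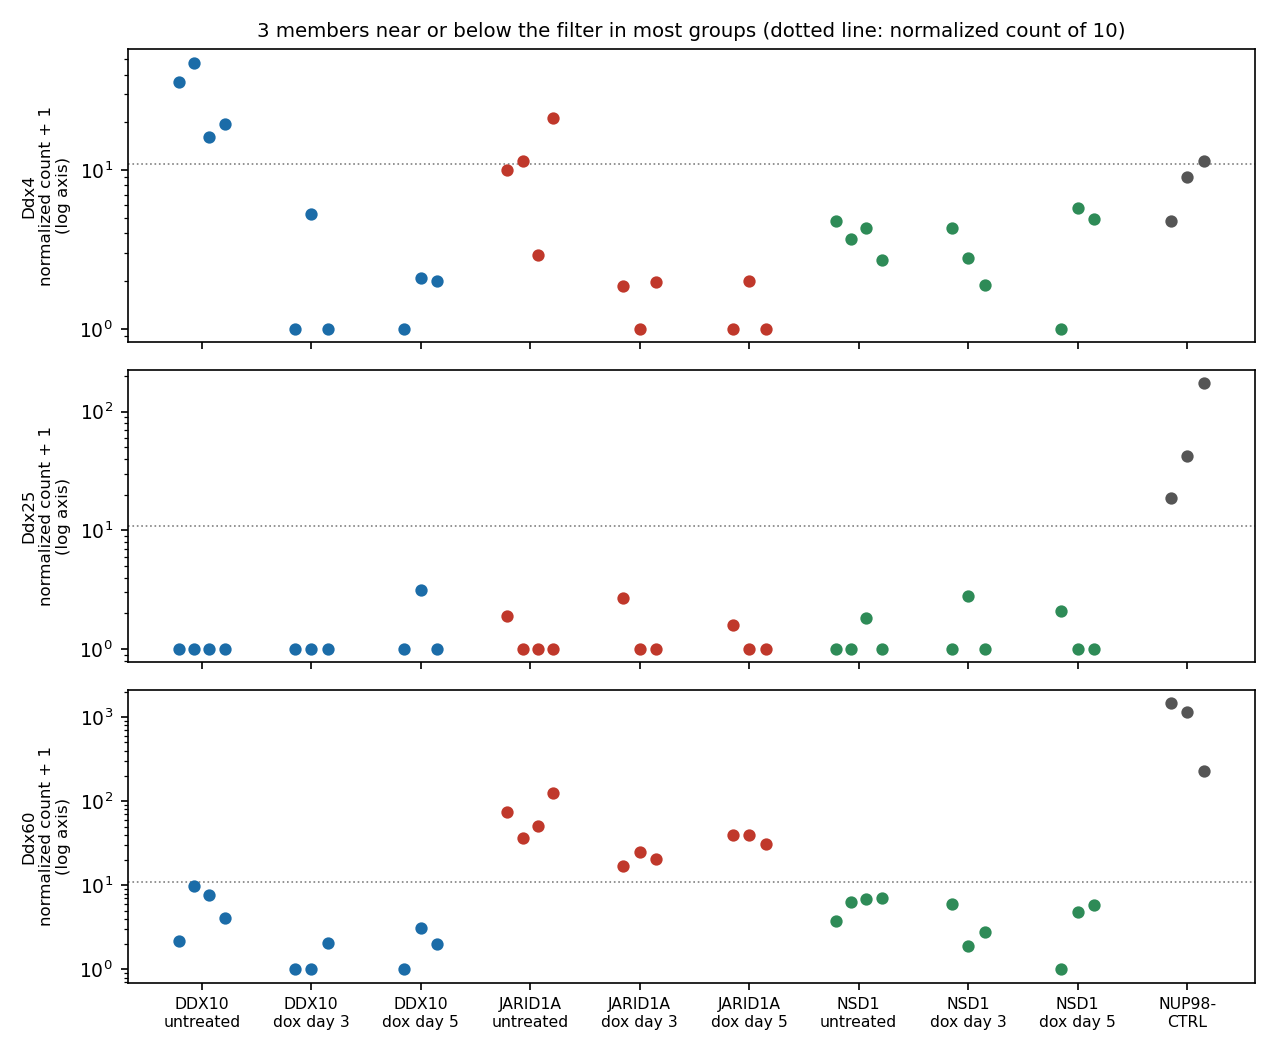
Normalized count + 1 (vertical, log axis) of Ddx4, Ddx25 and Ddx60 in each library (points) of the 10 groups (horizontal axis), with a dotted line at a normalized count of 10. Ddx4 is above the line in untreated NUP98-DDX10 (15.1 to 46.6) and at 0 to 4.25 after doxycycline, Ddx25 is above it only in NUP98-CTRL, and Ddx60 is above it in NUP98-CTRL and NUP98-JARID1A.

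Ddx11, a DNA helicase of sister chromatid cohesion, fell at day 5 over the 3 fusions (-0.24, limma adjusted p = 0.00545), in NUP98-JARID1A (-0.30, adjusted p = 0.0472) and in NUP98-DDX10 (148, 159 and 156 at day 5, against 181, 188, 200 and 227 untreated, adjusted p = 0.0448). Ddx59 rose in NUP98-DDX10 at day 5 (197, 204 and 224, against 135, 152, 131 and 157 untreated, limma adjusted p = 0.0456). The Ddx11 and Ddx59 calls in NUP98-DDX10 were lost without that line's untreated day 3 library (adjusted p = 0.152 and 0.0606), and in 16 and 24 of the 33 fits without 1 library. Ddx6 fell only at day 3 in NUP98-JARID1A (-0.29, adjusted p = 0.0294), while Ddx1, a tRNA ligase partner, and Ddx25 were not called in any comparison of doxycycline with untreated.

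Before doxycycline, the leukemias differed from the controls in most members, as in most genes. In untreated NUP98-DDX10 14 members were higher and 11 lower than in NUP98-CTRL, where 68.5% of genes were called (30.6% higher and 37.9% lower). In untreated NUP98-JARID1A 15 were higher and 8 lower, where 69.4% of genes were called (31.4% higher and 38% lower). In untreated NUP98-NSD1 13 were higher and 7 lower, where 64.6% of genes were called (29.7% higher and 34.9% lower). The 3 comparisons share the control libraries, and values given 3 at a time below are for untreated NUP98-DDX10, NUP98-JARID1A and NUP98-NSD1 in that order. Without control library 3 the counts were 18 higher and 9 lower, 17 and 7, and 16 and 6. The median of all genes was at -0.11, -0.11 and -0.06 and moved to 0.18, 0.13 and 0.20 under quantile normalization, and no direction called for a member in any comparison turned round with it. Without control library 3, Ddx56 was higher by 1.82, 2.03 and 1.26, and the log2 differences were -8.00, -4.33 and -7.79 for Ddx60, -4.81, -4.58 and -4.59 for Ddx25, and -1.16, -1.07 and -0.94 for Ddx6.

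Of the 14 ribosome biogenesis members, 7 were higher and 3 lower than in NUP98-CTRL in untreated NUP98-DDX10, 9 and 2 in NUP98-JARID1A, and 8 and 1 in NUP98-NSD1. The shares called, 71.4%, 78.6% and 64.3%, are near the 68.5%, 69.4% and 64.6% of all genes. Ddx56 stood at 558 to 743, 659 to 850 and 412 to 505 in the 3 untreated lines, against 193, 185 and 310 in NUP98-CTRL, and was higher by 1.58, 1.79 and 1.03 (limma adjusted p = 9.57e-11, 6.91e-12 and 2.74e-07). Ddx31 was higher by 1.53 in NUP98-JARID1A (limma adjusted p = 1.46e-11), and Ddx18, the counterpart of yeast Has1, by 1.22 there (adjusted p = 2.07e-07). Ddx49, the counterpart of yeast Dbp8, was higher by 1.01, 0.92 and 0.95. Ddx50, a close relative of Ddx21, went the other way in all 3 lines (-0.69, -0.61 and -0.38). Ddx10 was lower in untreated NUP98-DDX10 (-0.33, SE 0.13, limma adjusted p = 0.0299), not called in NUP98-JARID1A (-0.16, adjusted p = 0.281) and higher in NUP98-NSD1 (0.47, adjusted p = 0.00316). The NUP98-DDX10 call was lost without control library 3 (-0.24, adjusted p = 0.136), under quantile normalization (adjusted p = 0.0836), with edgeR on whole reads (adjusted p = 0.129) and without the untreated library titled day 3 (adjusted p = 0.0774).

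Of the members called lower in all 3 leukemia lines, Ddx6, a repressor of translation and activator of mRNA decay, had the highest level per kilobase (419.9 normalized counts). It stood at 2542 to 3204, 2936 to 3233 and 3212 to 3659 in the untreated lines, against 6572, 6328 and 6191 in NUP98-CTRL. The groups did not overlap (-1.14, -1.05 and -0.93, limma adjusted p = 2.05e-11, 9.95e-11 and 1.22e-09). Ddx42 and Ddx46 were lower in all 3 lines as well (-1.08, -0.76 and -0.31 for Ddx42; -0.89, -0.75 and -0.45 for Ddx46), and Ddx39b and Ddx19a, a factor of mRNA release at the pore, were higher in all 3 (0.97, 0.75 and 0.62 for Ddx39b; 0.67, 0.55 and 0.50 for Ddx19a). Ddx28 was higher by 1.43, 0.98 and 1.27. Ddx4 was higher in untreated NUP98-DDX10 (1.78, limma adjusted p = 0.0153), a call lost without control library 1 (adjusted p = 0.0849) or untreated library 2 (adjusted p = 0.0523).

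**Figure D5:**
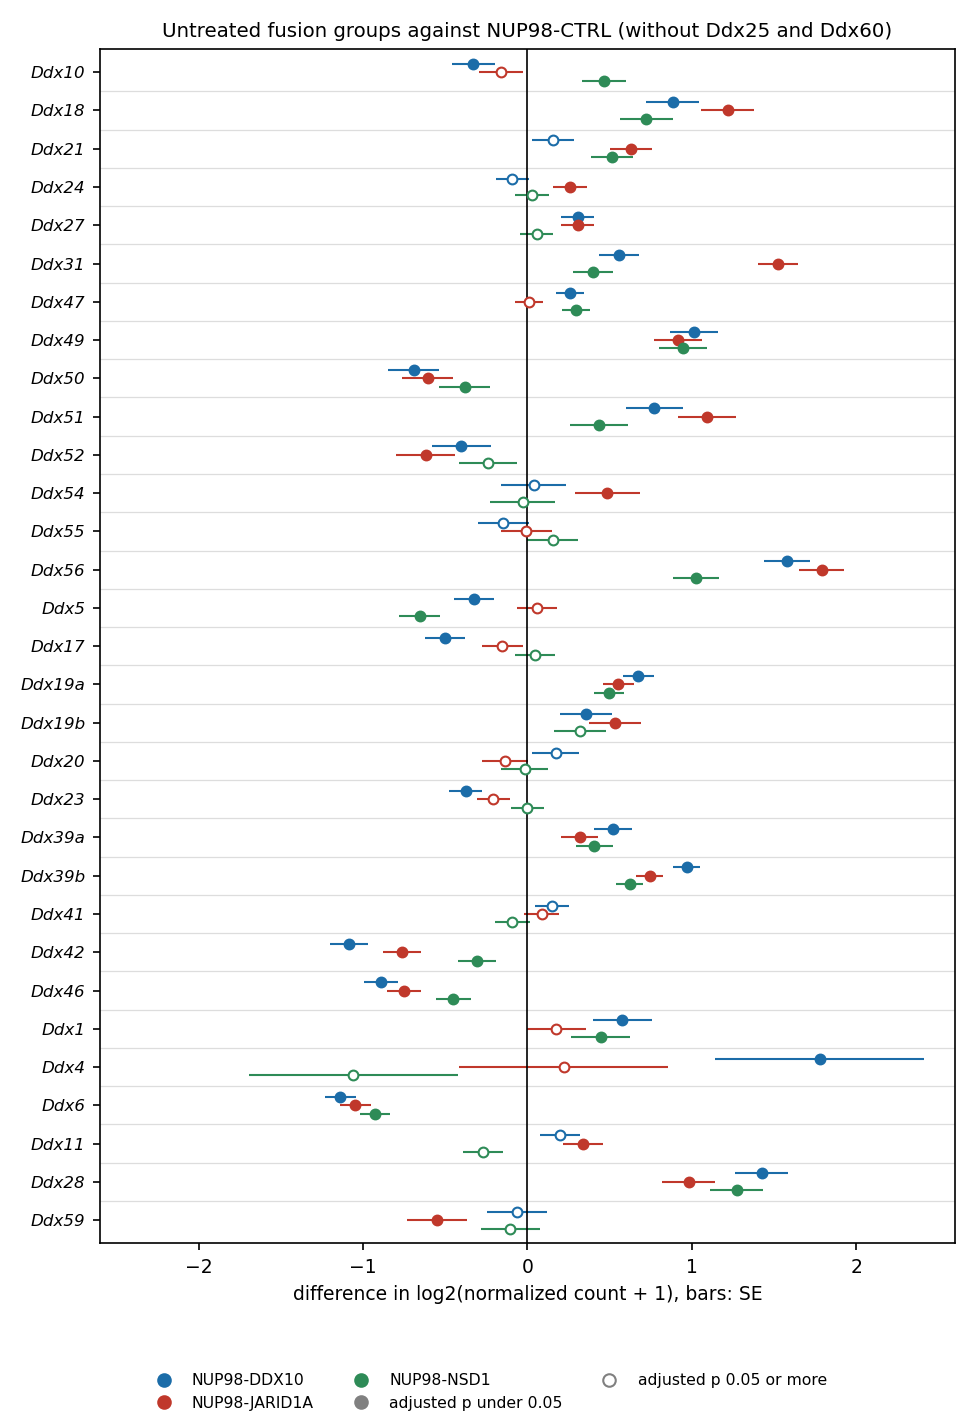
Untreated fusion minus NUP98-CTRL difference in log2(normalized count + 1) (horizontal axis, bars are SE) for 31 members by role (vertical axis) in the 3 fusions (colours), filled where limma adjusted p is under 0.05; Ddx25 and Ddx60, at -3.51 to -7.17, are off this scale. Ddx56 and Ddx28 lie to the right and Ddx6, Ddx42 and Ddx46 to the left in all 3 fusions, while Ddx10 is left of 0 in NUP98-DDX10 and right of it in NUP98-NSD1.

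Ddx60 and Ddx25 were lower in the leukemias by the most. Ddx25 passed the filter only through the control libraries, so its lower level in the fusion lines is tied to that selection. The same holds for the lower Ddx60 in NUP98-DDX10 and NUP98-NSD1, since Ddx60 passed only through NUP98-CTRL and NUP98-JARID1A libraries. Ddx60 had 20 reads over 4 untreated NUP98-DDX10 libraries against 2333 over 3 controls, a 188-fold lower level per unit of depth (exact 95% interval 121 to 308), and it was 13.6-fold lower in NUP98-JARID1A (12 to 15.4) and 189-fold lower in NUP98-NSD1 (126 to 299). The limma differences of Ddx60 were -7.17, -3.51 and -6.96, with adjusted p of 7.5e-11, 1.51e-05 and 1.36e-10. Ddx25, a testis helicase, had 0 reads over the 4 untreated NUP98-DDX10 libraries, at least 98.8-fold lower than in the controls against a floor of 3 reads over the group, and 1 read each in untreated NUP98-JARID1A and NUP98-NSD1. Controls held 17.7, 41.1 and 174 normalized counts, with the high value in library 3. The B cell, T and NK cell and erythroid marker sums of that library were also the highest of the controls, and its myeloid sum was the lowest.

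Markers of other cell types moved with this contrast. The summed B cell markers (9 of 9 matched) ran from 1053 to 1997 in the untreated fusions and from 19819 to 94732 in NUP98-CTRL, T and NK cell markers (9 of 10 matched) from 14.6 to 953 in the untreated fusions and from 2502 to 5888 in NUP98-CTRL, and erythroid markers (5 of 9 passed the filter, and 3 of the 4 globin genes were at 0 in every control) from 7.77 to 72.7 in the untreated fusions and from 5910 to 66462 in NUP98-CTRL. Single genes made up most of some of these sums. Cd79b averaged 1283 to 1803 in the untreated lines, against 18899 in NUP98-CTRL. Klrb1c went the other way, with a mean of 832 in untreated NUP98-JARID1A against 481 in NUP98-CTRL, while 8 of the 9 T and NK markers were called lower there. The part of these cell types in the control comparisons was not tested, and fewer cells of a type and less RNA per cell cannot be told apart in bulk marrow. Within the fusions the 12 myeloid markers did not move as one, and the lysozyme gene Lyz2 had the highest mean of them in each group of the fusions. In NUP98-JARID1A 6 of the 12 rose and 2 fell at day 5, beside the fall of the ribosome biogenesis members, and the sum was 228613 to 306022 untreated, 294405 to 350689 at day 3 and 483683 to 494142 at day 5. Lyz2 averaged 248981 at day 5 there, against 90028 untreated (limma adjusted p = 7.99e-05), while the granule enzyme genes Mpo, at 16040 against 40512 untreated (adjusted p = 0.0119), and Ctsg, at 3280 against 13159 untreated (adjusted p = 5.18e-05), fell. In NUP98-NSD1 5 rose and 4 fell at day 5, and the sum was 330267 to 392337, against 233381 to 284539 untreated. Lyz2 averaged 240517 at day 5 there, against 108067 untreated (limma adjusted p = 0.00214), and Mpo (3509 against 27634 untreated), Elane (662 against 6060 untreated), Ctsg (4353 against 24735 untreated) and Ly6c2 (24772 against 49377 untreated) fell. In NUP98-DDX10 2 rose and 0 fell at day 5, and the sum was 237578 to 251150, against 211794 to 255887 untreated, with overlap. The 2 were Lyz2, at 117879 against 59203 untreated (limma adjusted p = 0.012), and Ptprc (7188 against 5354 untreated, adjusted p = 0.0125), while Mpo averaged 25015 against 53617 untreated (adjusted p = 0.0785) and Ctsg 10672 against 19607 untreated (adjusted p = 0.0875). Their part in the falls of Ddx10, Ddx21, Ddx27 and the other nucleolar members was not tested.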

How the data were processed

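RNA was measured in 33 libraries of 10 groups; 2 ChIP samples were not analysed here. The authors deposited normalized counts (a signal: reads per gene divided by a size factor), made with STAR, featureCounts and DESeq2 on GRCm38/mm10 per the submitters' processing notes; their versions and how strand was counted are not given in the sources used here. Dividing by the smallest positive value of each library gave whole reads for 100% of values (tolerance 0.01), 12043487 to 28903870 reads per library. Of 24454 gene IDs, 24376 matched a symbol.

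Features with a normalized count of at least 10 in 3 or more libraries (12682 genes and 5 constructs) entered 1 limma fit (3.58.1, R 4.3.3, trended variance) of 10 group means on log2(value + 1), which understates the change of low genes. Benjamini-Hochberg adjustment ran over all of them, with a threshold of 0.05. Alternatives were edgeR 4.0.16 and DESeq2 1.42.0 on the whole reads, a pseudocount of 10, no filter, quantile normalization, a replicate block, no untreated day 3 libraries, a fit of the compared groups only, and leaving out each library. Intervals are exact at 95% and cover counting error only; the floor for 0 reads is 3 reads over the group. The fit was tested on simulated data.

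Members and gene lists were chosen with earlier results of these data known. Named genes are Ddx10, the 6 members with the largest called change each way in the mean comparisons, the 3 largest each way in single comparisons, the 4 smallest p of each F-test, the 3 members most like Ddx10, and up to 3 genes of each other list; further members are named to account for the family, a choice made with their values in view.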

Additional observations from a re-analysis of the deposited data

Results flagged for a closer look

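In 7 of 99 member-by-group sets of 4 untreated libraries, 1 library lay far from the other 3, by the gap to its nearest neighbour as a share of the range (above Dixon's 95% critical value for 4 libraries); chance gives about 1 in 20. In untreated NUP98-NSD1 the shares were 0.859 for Ddx6, 0.978 for Ddx19b, 0.844 for Ddx28 and 1 for Ddx25. In untreated NUP98-JARID1A they were 0.987 for Ddx19a, 0.883 for Ddx46 and 1 for Ddx25. For Ddx25 the far library holds a single read in each group.

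The day 5 difference was unequal among the 3 fusions for 11 members by limma's F-test, with adjusted p of 0.000102 for Ddx27, 0.00252 for Ddx39a, 0.00293 for Ddx46, 0.00371 for Ddx42, 0.00377 for Ddx21, 0.00771 for Ddx4, 0.0117 for Ddx10, 0.0152 for Ddx31, 0.0301 for Ddx49, 0.0357 for Ddx17 and 0.0467 for Ddx39b. For Ddx10 the NUP98-DDX10 day 5 difference against the mean of the other 2 fusions had a limma adjusted p of 0.0108. Without the untreated libraries titled day 3 both Ddx10 calls were lost (adjusted p = 0.0653 by the F-test and 0.0555).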

How the results depend on the processing

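Of 544 values of 68 named gene results under the 8 alternatives other than leaving out a library, 513 kept their direction and side of the threshold, 30 lost the call and 1 reversed. The reversed value was Ddx10 at day 3 over the 3 fusions (-0.00231 under quantile normalization), and this and Ddx10 in NUP98-JARID1A at day 3 also changed sign among the fits without 1 library (-0.026 to 0.038 and -0.17 to 0.020). Without the untreated libraries titled day 3, called members were 3 and not 5 in the mean at day 3, 1 and not 4 in NUP98-DDX10 at day 5, 3 and not 5 in NUP98-JARID1A at day 3, 1 and not 2 in NUP98-NSD1 at day 3 and at day 5, and 6 and not 11 by the F-test, and Ddx10 became -0.20 in the mean at day 5 and 0.52 for NUP98-DDX10 against the other 2 fusions at day 5. In fits of the compared groups only the counts were 8 in the mean at day 3, 9 in NUP98-DDX10 at day 5, 3 in NUP98-JARID1A at day 3, 9 in NUP98-JARID1A at day 5 and 5 in NUP98-NSD1 at day 3. With no filter they were 2 in NUP98-DDX10 at day 5 and 1 in NUP98-NSD1 at day 3 and at day 5. With the replicate block they were 2 in NUP98-DDX10 at day 3, 7 in NUP98-DDX10 at day 5 and 4 in NUP98-NSD1 at day 5, and Ddx10 in untreated NUP98-DDX10 against the other 2 untreated fusions became -0.41 and was no longer called (adjusted p = 0.0749), nor were Ddx10 (-0.17, adjusted p = 0.53) and Ddx4 (2.16, adjusted p = 0.0705) in untreated NUP98-DDX10 against NUP98-CTRL. Same-numbered libraries share only a number: of 27 such pairs, 4 had a correlation of deviations over 0.1 (range -0.377 to 0.344). The cause of these changes was not tested. Over the 33 fits without 1 library, called members ran from 3 to 6 in the mean at day 3 and 13 to 17 at day 5, 1 to 2 and 1 to 6 in NUP98-DDX10 at day 3 and day 5, 2 to 7 and 14 to 20 in NUP98-JARID1A, 0 to 3 and 1 to 4 in NUP98-NSD1, and 8 to 18 by the day 5 F-test. Against NUP98-CTRL the untreated NUP98-DDX10 count ran from 21 to 27, that of NUP98-JARID1A from 19 to 24 and that of NUP98-NSD1 from 16 to 22. Ddx10 ran from -0.28 to -0.17 in the mean at day 5, from -0.53 to -0.44 in untreated NUP98-DDX10 against the other 2 untreated fusions, and from 0.53 to 0.70 in its day 5 difference against theirs. Ddx4 and Ddx25, with few reads per library, are limited by depth, and so is Ddx60 in NUP98-DDX10 and NUP98-NSD1.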
